A study of Homo sapiens with 8 samples.

Results

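Genes of the PAX-SIX-EYA network of muscle progenitors were followed in Rh41 cells after knockdown of G9a. The members were taken by symbol from the deposited table: PAX3, PAX7, SIX2, SIX4, SIX5, EYA1, EYA2, EYA3 and EYA4, which are 9 of the 60234 genes listed, and each symbol had 1 identifier. Rh41 is an established human line of alveolar rhabdomyosarcoma, a childhood tumour whose cells resemble immature skeletal muscle. The line carries the PAX3-FOXO1 gene fusion. Every library is given as this line, and the fusion itself was not measured in them. The labels put 4 libraries in a group named control and 4 in a group named siG9a. The series title writes shG9a instead, and neither the reagent sequence nor the time after knockdown is given in the sources used here. The design text speaks of biological replicates, but nothing says whether the 4 libraries of a group came from separate cultures, so p-values measure the spread between these libraries, which may be technical.

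PAX3 and PAX7 are paired-box transcription factors that mark and maintain muscle progenitors. The sine oculis homeobox proteins SIX2, SIX4 and SIX5 belong to a family of homeodomain factors that bind the MEF3 element of muscle genes, and EYA proteins are their co-activators, which do not bind DNA themselves and carry a tyrosine phosphatase domain. In muscle development the EYA-SIX complex acts upstream of and together with the PAX genes to switch on the myogenic factors. In alveolar rhabdomyosarcoma a chromosomal translocation joins the DNA-binding part of PAX3 to the activation domain of FOXO1.

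RNA was read from transcript ends (QuantSeq 3′ libraries), so a CPM value (counts scaled to the library total) is a number of tags and is not divided by transcript length. Libraries held between 1458825 and 1938665 reads assigned to genes. Over the 8 libraries the members rested on few reads, from 95 in all for SIX2 to 882 for EYA4, and both replicate 3 libraries held only 2 reads of PAX7. Confidence intervals on single libraries are 95% Wilson intervals and cover counting error only. In RNA from whole cultures, fewer cells of a type and less RNA per cell cannot be told apart.

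The libraries numbered 3 stood apart in both groups. The 8 genes fixed as markers of alveolar rhabdomyosarcoma summed to 186 CPM in control replicate 3, against 1199 to 1304 CPM in the rest of that group. In siG9a replicate 3 they summed to 179 CPM, against 729 to 1109 CPM. The 6 neural markers went the other way, with 9665 CPM in control replicate 3 and 8964 CPM in siG9a replicate 3. In replicates 1, 2 and 4 they summed to 189, 1830 and 2058 CPM in control and to 219, 2956 and 1933 CPM in siG9a. This sum was thus lowest in replicate 1 of both groups, so the libraries other than replicate 3 differed as well. NEFM and NEFL made up most of that sum, and the neural crest marker SOX10 was at 0 in every library. The sum of the epithelial markers was also highest there, at 75.6 and 43.96 CPM in the control and siG9a replicate 3 libraries against 10.3 to 32.7 and 23.5 to 30.9 CPM. KRT18 stood at 624% and 322% of the others and KRT8 at 389% and 295%, but CDH1 at 49.9% and 51.2%. KRT19 was at 816% in control replicate 3 and at 14.6% in siG9a replicate 3. EPCAM was at 0.69 CPM or less in every library. The sum of the fibroblast markers was lowest there, at 117 and 51.95 CPM against 261 to 398 and 144 to 312 CPM, with POSTN at 0 in every library. In control replicate 3 this came from COL3A1, at 21.5% of the others, while COL1A1 and COL1A2 stood at 109% and 99.7%. In siG9a replicate 3 COL3A1, COL1A1 and COL1A2 stood at 19.3%, 29.7% and 22.7%. Blood markers summed to at most 5.71 CPM. What the replicate 3 libraries hold was not tested. Calls of members and list genes, and the changes of EHMT2, DES and TFAP2B, are therefore also given without them.

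EHMT2, the gene for the histone H3 lysine 9 methyltransferase G9a, measured 57.6, 68.1, 87.3 and 88.3 CPM in control replicates 1 to 4 and 19.6, 35.1, 33.1 and 58.5 CPM in siG9a. Its symbol had 7 identifiers, and these values are of the identifier with the highest mean CPM. The antisense gene EHMT2-AS1 overlaps it on the opposite strand. The siG9a libraries stood at 34.04%, 51.6%, 37.9% and 66.3% of their same-numbered controls. The log2 change was −1.10 ± 0.31 (SE), and limma gave an adjusted p of 0.191 without a block and 0.000472 with the replicate number as a block. Without both replicate 3 libraries and without a block it was −1.01 ± 0.33 (SE), with an adjusted limma p of 0.115.

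Across all genes, limma on log2(CPM + 1) called 0 of 15092 genes (0%) without a block at the adjusted threshold of 0.05. An unadjusted p under 0.05 was found for 1880 of them (12.5%), and on the recovered reads edgeR called 0 and DESeq2 called 291 genes (1.93%). With the replicate number as a block limma called 1717 genes (11.4%), 733 higher (4.86%) and 984 lower (6.52%). All 9 members passed the filter of a mean of 1 CPM. None was called without the block, and 2 had an unadjusted p under 0.05, EYA2 and EYA3. With the block the same 2 were called, EYA2 lower and EYA3 higher. They were also the 2 called by edgeR with the block (11.3% of all genes), and EYA2 alone was called by DESeq2 with the block (6.42%). No member had groups without overlap, which 7.32% of all genes had. The median log2 change of the 9 members was −0.07, and that of all genes tested was 0.01.

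Among the marker genes, limma with the block called 2 of the 7 rhabdomyosarcoma markers tested, both lower, where it called 11.4% of all genes (6.52% lower). The marker lists are too short for such counts to be read as a result about a list. DES, the muscle intermediate filament desmin, averaged 188.5 ± 94.5 CPM in control libraries and 63.8 ± 60.04 CPM in siG9a libraries (SD, n = 4). Its log2 change was −1.77, with adjusted limma p-values of 0.2996 without the block and 6.69e-06 with it. TFAP2B fell by 0.78 on the log2 scale, with adjusted limma p-values of 0.567 and 0.00481, while MYOD1 had a log2 change of −0.03. By log2 change the 7 rhabdomyosarcoma markers tested split 3 higher and 4 lower. MYOG changed by −0.65, MYCN by 0.65, CHRND by 0.21 and CDH3 by 0.14, none of them called in either limma fit. Without both replicate 3 libraries and without the block, DES changed by −1.79 and TFAP2B by −0.88, with adjusted limma p-values of 0.0109 and 0.0569. COL1A1, 1 of 3 fibroblast markers tested, and CDH1, 1 of 4 epithelial markers, were called lower as well, with log2 changes of −0.85 and −1.47. Adjusted limma p-values were 0.414 and 0.273 without the block and 0.0410 and 0.0171 with it. The COL1A1 call was weak: edgeR and DESeq2 with the block gave adjusted p-values of 0.0552 and 0.113, and pair 4 was higher in siG9a.

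**Figure D1:**
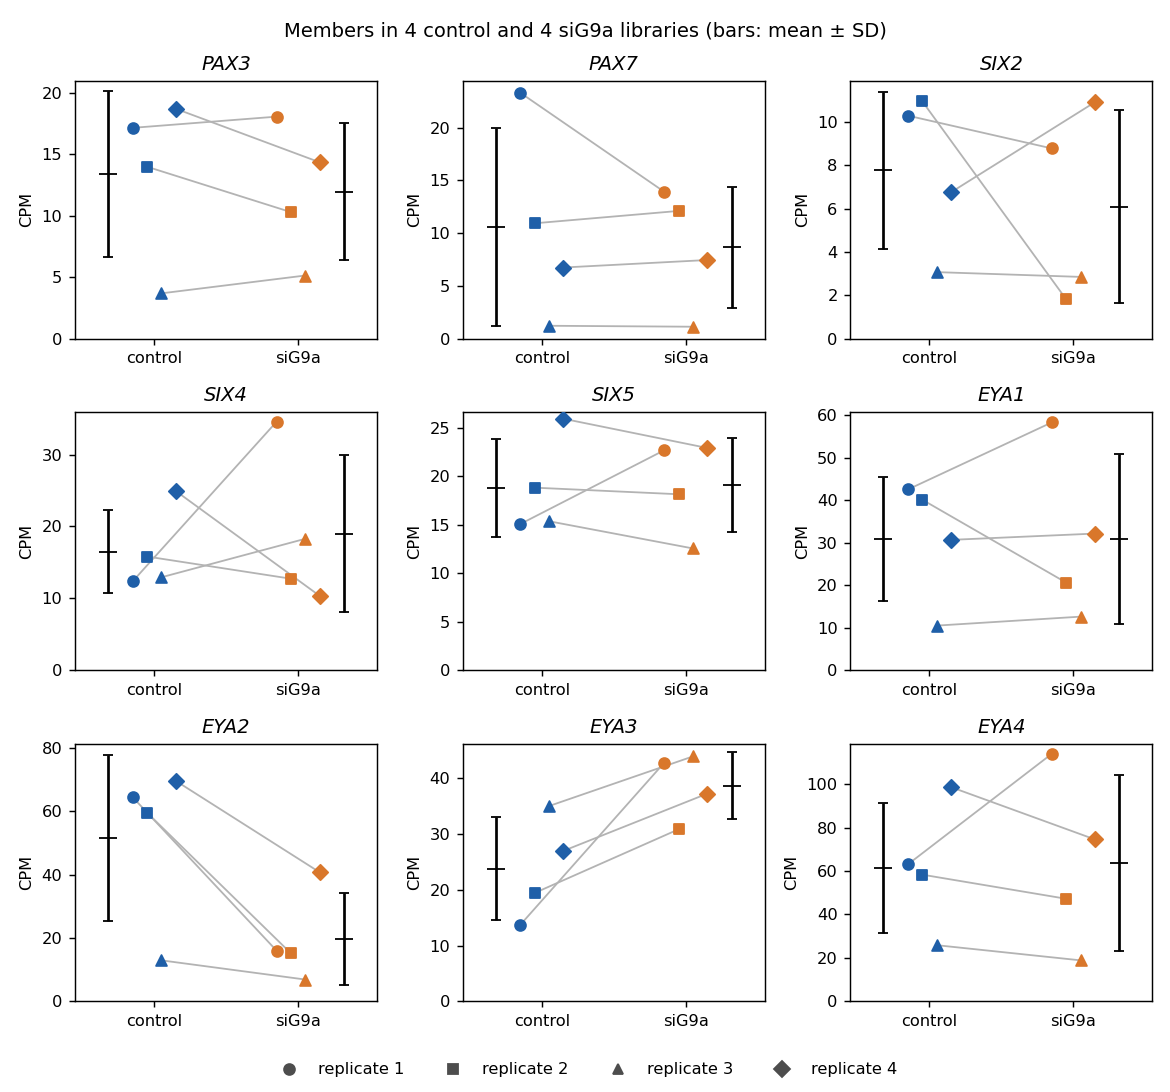
CPM of each member in the 4 control libraries (blue) and the 4 siG9a libraries (orange), each panel on its own axis from 0. Marker shapes give the replicate number, grey lines join libraries with the same number and black bars show the mean ± SD. EYA2 is lower and EYA3 higher in siG9a along all 4 lines, while the lines of the other 7 members run in both directions.

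**Figure D2:**
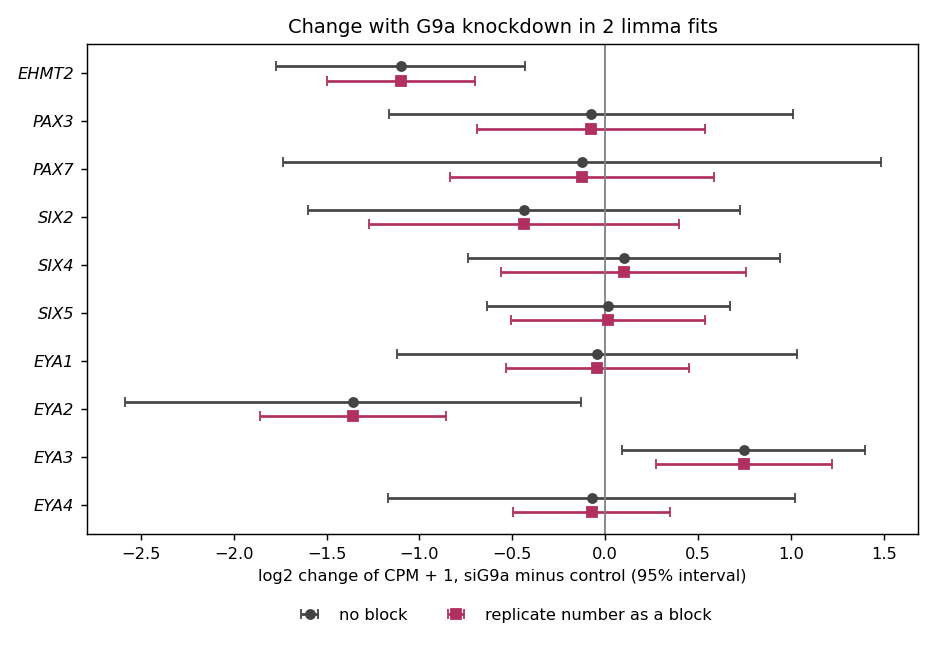
Log2 change of CPM + 1 (siG9a minus control) for EHMT2 and the 9 members, with 95% intervals from limma without a block (circles) and with the replicate number as a block (squares). Both intervals of EHMT2, EYA2 and EYA3 lie on 1 side of 0, and those of the other 7 members span it.

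EYA2, a co-activator of sine oculis homeobox proteins, was the member with the largest change. It measured 64.4, 59.6, 12.9 and 69.6 CPM in control replicates 1 to 4, which were 94, 98, 21 and 134 reads. In siG9a it measured 15.99, 15.1, 6.85 and 40.7 CPM, which were 31, 25, 12 and 71 reads. The siG9a library was below the control library of its number in 4 of 4 pairs, as it was for 15.3% of all genes tested, and held 24.8%, 25.4%, 53.1% and 58.5% of it. The groups overlapped only because control replicate 3 was low: its 95% interval ran from 8.45 to 19.7 CPM, where the lowest interval of the other control libraries began at 48.9 CPM. Control libraries averaged 51.6 ± 26.1 CPM and siG9a libraries 19.7 ± 14.6 CPM (SD, n = 4 each).

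The log2 change of EYA2 was −1.36 ± 0.57 (SE; 95% interval −2.59 to −0.13) with an adjusted limma p of 0.357 without a block. With the replicate number as a block it was −1.36 ± 0.24 (SE; 95% interval −1.86 to −0.86) with an adjusted limma p of 0.000601. An exact two-sided permutation test of the 8 values gave p = 0.114, where 4 against 4 can reach 0.0286. Without both replicate 3 libraries EYA2 fell from 64.5 ± 5.02 to 23.95 ± 14.5 CPM (SD, n = 3 each). The limma log2 change was then −1.54 ± 0.33 (SE) with an adjusted p of 0.0199 and no block, in a fit that called 2.74% of genes (1.95% lower), and the groups did not overlap, as for 11.5% of genes in that direction. Leaving out control replicate 3 alone also brought the call, at −1.92 ± 0.43 (SE) and an adjusted p of 0.0395 by limma, where 1.99% of genes were called (1.44% lower). The call with the block was kept when each of the 4 pairs was left out in turn, with a highest adjusted limma p of 0.0214. The part of the lower DES and TFAP2B, 2 of the 7 rhabdomyosarcoma markers tested, in this change was not tested.

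EYA3, the family member with the broadest expression in adult tissues, moved in the opposite direction. Control replicates 1 to 4 held 13.7, 19.4, 35.05 and 27.0 CPM, and siG9a held 42.8, 30.9, 43.96 and 37.3 CPM. Again control replicate 3 was the library that made the groups overlap, here as the highest control value. Averages were 23.8 ± 9.27 CPM for control and 38.7 ± 5.997 CPM for siG9a (SD, n = 4 each), and siG9a was higher in 4 of 4 pairs, as for 14.9% of all genes tested. The log2 change was 0.75 ± 0.30 (SE; 95% interval 0.09 to 1.40) with an adjusted limma p of 0.347 without a block, and 0.75 ± 0.23 (SE) with 0.0358 with the block. The exact two-sided permutation p was 0.0571. This call was weak: it was lost when pair 1, 2 or 3 was left out, with adjusted limma p-values of 0.256, 0.117 and 0.0592, and DESeq2 with the block gave an adjusted p of 0.119. Without both replicate 3 libraries the groups did not overlap, as for 10.5% of genes in that direction, and the log2 change was 0.89 ± 0.30 (SE), and limma gave an adjusted p of 0.137.

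EYA1, the family member mutated in branchio-oto-renal syndrome, held 42.5, 40.1, 10.45 and 30.6 CPM in control and 58.3, 20.6, 12.6 and 32.1 CPM in siG9a. Both replicate 3 libraries were the lowest of their group, and the pairs split 3 higher to 1 lower. Its log2 change was −0.04 ± 0.50 (SE), with limma 95% intervals of −1.12 to 1.03 without the block and −0.54 to 0.45 with it. EYA4, mutated in a form of hereditary deafness and cardiomyopathy, was the most abundant member in tags, at 63.1, 58.3, 25.8 and 98.7 CPM in control and 114, 47.2, 18.8 and 74.6 CPM in siG9a. It was higher in siG9a in pair 1 and lower in the other pairs. Its log2 change was −0.07 ± 0.50 (SE), with limma 95% intervals of −1.17 to 1.02 without the block and −0.49 to 0.35 with it. Changes of more than 2-fold in either direction therefore lay outside the interval with the block for both genes.

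The stretches of 250 bases before the RefSeq start of EYA3 and EYA4 are shown because these 2 genes of 1 family differed in their call (RefSeq, build GRCh38.p14). EYA3 lies at chr1:28088611-28088860 on the minus strand and EYA4 at chr6:133241107-133241356 on the plus strand, each 5′ to 3′ and running up to the base before the start. Capitals mark the E-box, the letters CANNTG that are their own reverse complement and that myogenic factors bind.
EYA3: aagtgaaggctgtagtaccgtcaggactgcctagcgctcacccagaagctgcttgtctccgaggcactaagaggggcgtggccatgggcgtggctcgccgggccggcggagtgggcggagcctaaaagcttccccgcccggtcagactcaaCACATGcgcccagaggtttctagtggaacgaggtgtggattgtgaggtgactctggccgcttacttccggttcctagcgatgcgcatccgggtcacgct
EYA4: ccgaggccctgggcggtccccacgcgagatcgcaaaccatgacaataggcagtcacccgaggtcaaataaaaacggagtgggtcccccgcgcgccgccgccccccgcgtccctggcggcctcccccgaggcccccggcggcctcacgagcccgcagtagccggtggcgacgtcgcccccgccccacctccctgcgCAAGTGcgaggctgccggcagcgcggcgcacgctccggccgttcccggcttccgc
Each held 1 E-box, at 99 bases before the start in EYA3 and at 55 bases before it in EYA4, and an E-box was present in 61.8% of all 35116 promoter windows of this length. The MEF3 letters TCAGGTTTC, searched on both strands, were in neither stretch and in 0.288% of all windows. The G and C share was 62.4% in EYA3 and 75.2% in EYA4. These are matches of letters only, and promoters were found for 6 of the 9 members.

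The 4 EYA genes together held 168 ± 59.7 CPM per control library and 153 ± 67.5 CPM per siG9a library (SD, n = 4 each). Within a library the share of a gene in these reads does not depend on library scaling. EYA2 made up 35.1%, 33.6%, 15.3% and 30.8% of EYA reads in control replicates 1 to 4, against 6.92%, 13.3%, 8.33% and 22.05% in the siG9a libraries. EYA3 made up 7.46%, 10.96%, 41.6% and 11.95% in control and 18.5%, 27.1%, 53.5% and 20.2% in siG9a. In each of the 4 pairs the EYA2 share was lower and the EYA3 share higher in siG9a. Wilson intervals of the EYA2 share did not overlap between the libraries of a pair for replicates 1 and 2 (29.6% to 41.0% against 4.92% to 9.65%, and 28.4% to 39.2% against 9.17% to 18.9%), and they overlapped for replicates 3 and 4. The shares of EYA1 were 17.9 ± 5.73% and 19.0 ± 4.32%, and those of EYA4 35.4 ± 5.73% and 38.5 ± 11.1%, in control and siG9a (SD, n = 4 each).

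**Figure D3:**
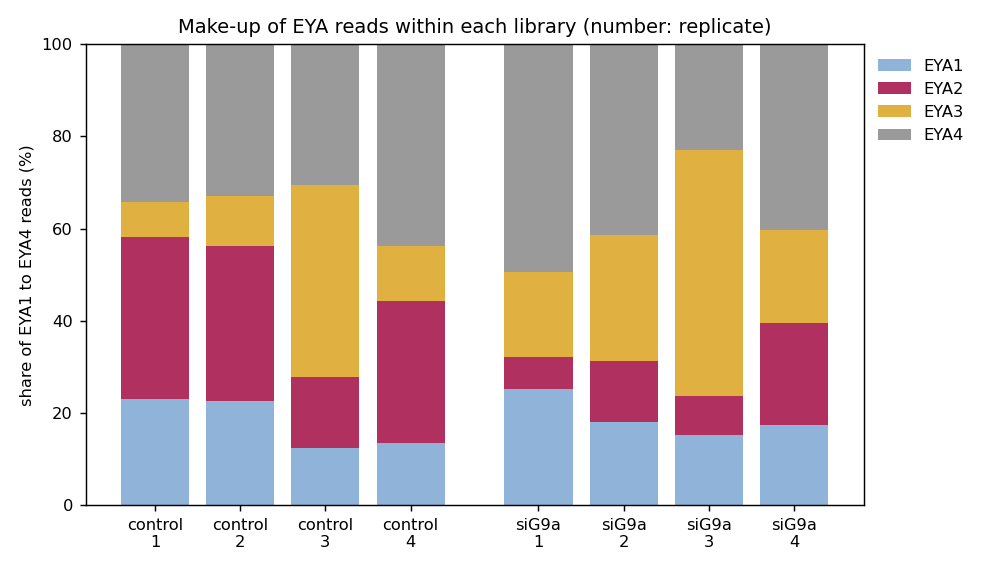
Share of each EYA gene in the reads of EYA1 to EYA4, in percent, for the 4 control and 4 siG9a libraries. The EYA2 segment shrinks and the EYA3 segment grows from the control to the siG9a library of every number, and EYA3 is the tallest segment in both replicate 3 libraries.

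PAX3 measured 17.1, 13.98, 3.69 and 18.7 CPM in control replicates 1 to 4 and 18.05, 10.3, 5.14 and 14.3 CPM in siG9a. The fusion transcript ends in FOXO1 sequence, so its 3′ tags fall under FOXO1 and the PAX3 row mainly counts transcripts with the PAX3 end. Both replicate 3 libraries were the lowest of their group, and 2 pairs were higher and 2 lower. The log2 change was −0.08 ± 0.50 (SE; 95% interval −1.16 to 1.01) with an adjusted limma p of 0.969, and the interval with the block was −0.69 to 0.54. FOXO1 measured 233, 209, 48.6 and 218 CPM in control and 279, 170, 83.4 and 249 CPM in siG9a, a log2 change of 0.23 ± 0.49 (SE), and limma gave an adjusted p of 0.899 without the block and 0.398 with it.

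PAX7, the factor of adult muscle stem cells, measured 23.3, 10.9, 1.23 and 6.75 CPM in control and 13.9, 12.1, 1.14 and 7.46 CPM in siG9a. The same order of replicate numbers, 1, 2, 4 and 3 from high to low, was found in both groups. The replicate 3 values were 2 reads each, below the 3 reads taken as the floor. The log2 change was −0.13 ± 0.74 (SE), and limma 95% intervals were −1.73 to 1.48 without the block and −0.83 to 0.58 with it. Of the reads of PAX3 and PAX7 together, PAX3 held 61.7 ± 15.5% in control and 62.5 ± 15.2% in siG9a (SD, n = 4 each).

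SIX2, known from kidney and craniofacial progenitors, was the lowest member in tags, at 10.3, 10.9, 3.07 and 6.75 CPM in control and 8.77, 1.82, 2.85 and 10.9 CPM in siG9a. Its low siG9a value in replicate 2 was 3 reads, and the fits gave a log2 change of −0.44 ± 0.53 (SE), and limma gave an adjusted p of 0.799 without the block and 0.546 with it. SIX4, which shares functions with its relatives in muscle formation, measured 12.3, 15.8, 12.9 and 24.9 CPM in control and 34.6, 12.7, 18.3 and 10.3 CPM in siG9a. Its pairs ran in both directions, with log2 changes from 1.41 in pair 1 to −1.20 in pair 4. SIX5, which lies next to DMPK and is known from the myotonic dystrophy locus, had the smallest log2 change, at 15.1, 18.8, 15.4 and 25.96 CPM in control and 22.7, 18.2, 12.6 and 22.9 CPM in siG9a. The log2 changes of SIX4 and SIX5 were 0.10 ± 0.39 and 0.02 ± 0.30 (SE), with adjusted limma p-values of 0.947 and 0.990 without the block and 0.887 and 0.979 with it.

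For the 7 members other than EYA2 and EYA3, log2 changes lay between −0.44 and 0.10 and the exact permutation p was 0.457 or more. Their 95% intervals with the block reached from −1.27 to 0.76, the lower bound being that of SIX2 and the upper that of SIX4. In GENCODE release 29, exons of EYA1, EYA4 and SIX5 overlap antisense or other genes on the opposite strand and EYA2 overlaps a processed pseudogene, and the strand setting of the counting is not given in the sources used here. Values of these members are uncertain to that extent.

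Most members were low in both replicate 3 libraries. In control, replicate 3 held 22.2% of the mean of the other 3 libraries for PAX3, 9.0% for PAX7, 32.9% for SIX2, 27.7% for EYA1, 20.01% for EYA2 and 35.2% for EYA4. In siG9a the same shares were 36.1%, 10.2%, 39.8%, 33.95%, 28.6% and 24.0%. These 6 of the 9 members were thus under 50% in both groups, which held for 11.4% of all genes tested. SIX4 stood at 73.0% and 95.2%, and SIX5 at 77.0% and 59.1%. EYA3 was the only member above the other libraries in both groups, at 175% in control and 119% in siG9a. The marker MYOD1 stood at 11.3% and 16.9%, TFAP2B at 23.6% and 30.7%, FOXO1 at 22.1% and 35.8%, and NEFM at 699% and 535%. The part of the marker differences in the levels of the members was not tested.

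**Figure D4:**
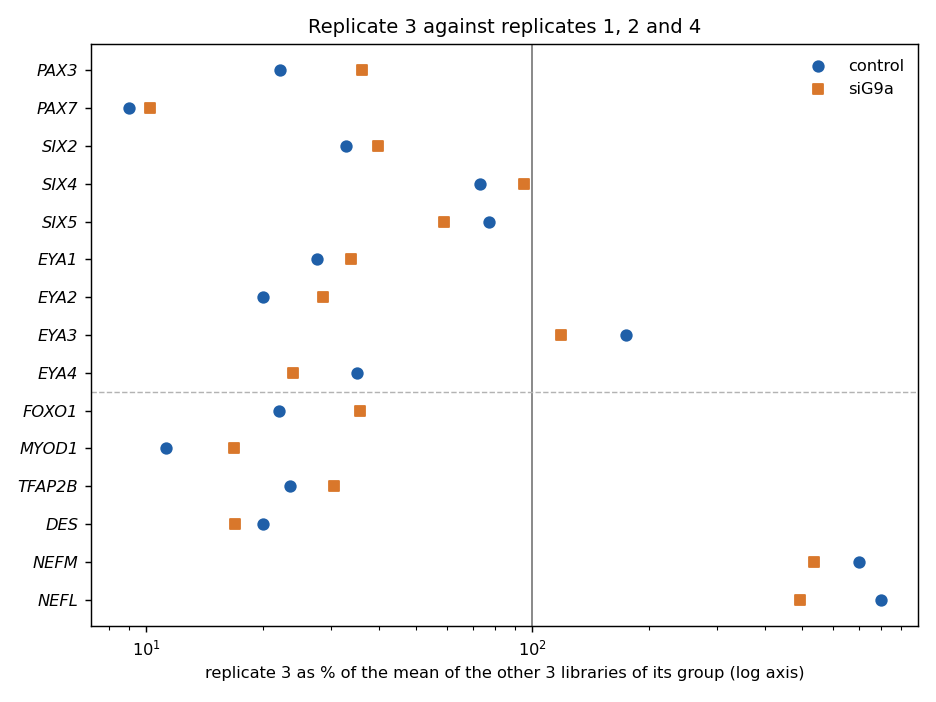
Replicate 3 as a percentage of the mean of replicates 1, 2 and 4 of the same group (log axis), for the 9 members (above the dashed line) and for FOXO1 and 5 marker genes (below it), in control (circles) and siG9a (squares). PAX3, PAX7, SIX2, EYA1, EYA2 and EYA4 lie left of 50% beside MYOD1, TFAP2B and DES, and EYA3 lies right of 100% in both groups.

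Other genes around the network were counted from 5 lists. Of 7 other PAX genes, 3 were tested and limma called 1 with the block (11.4% of all genes), PAX2, a factor of kidney and optic development. PAX2 fell from 11.7, 8.51, 3.07 and 7.27 CPM in control to 0, 0.61, 1.14 and 4.01 CPM in siG9a, a log2 change of −1.97 ± 0.54 (SE), and limma gave an adjusted p of 0.184 without the block and 0.00700 with it. The call was lost without pair 1 or pair 2 (adjusted limma p 0.0936 and 0.0705). PAX6, a factor of eye and brain, was at 33.2 and 14.3 CPM in replicate 3 and at most 9.87 CPM elsewhere, with a log2 change of −0.64 ± 0.71 (SE). PAX5 had a log2 change of −0.84 ± 0.58 (SE), and neither gene passed the threshold in either fit. Of the cofactors of PAX-SIX-EYA proteins, 14 of 15 symbols were found, 13 were tested and 1 was called by limma with the block, where 11.4% of all genes were. This was AES, a short Groucho-family protein, with a log2 change of −0.46 ± 0.35 (SE) and an adjusted limma p of 0.651 without the block and 0.0410 with it, lost without any 1 of the pairs (up to 0.217). TLE1 and TLE3, Groucho corepressors, had log2 changes of 0.45 ± 0.20 and −0.30 ± 0.27 (SE) and were not called. The cofactor DACH2 was at 0 in every library, and the 13 cofactors had a median log2 change of 0.09.

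Of 19 muscle progenitor and migration genes, 14 were tested. Limma called 0 without the block and 6 with it, 2 higher and 4 lower, where it called 11.4% of all genes with the block (4.86% higher, 6.52% lower). The list's median log2 change was −0.34. MEOX1, a homeobox factor of the somite, rose from 1.37, 5.47, 1.23 and 5.71 CPM to 20.1, 13.3, 5.14 and 13.2 CPM, with an adjusted limma p of 0.212 without the block and 0.00489 with it. SDC4, a syndecan of the satellite cell surface, rose from 15.7 ± 5.99 to 36.2 ± 12.3 CPM (SD, n = 4), with adjusted limma p-values of 0.211 and 0.00146. TBX1, a T-box factor of head muscle, fell from 42.5, 43.75, 10.45 and 43.6 CPM to 21.7, 14.5, 1.71 and 18.4 CPM, with adjusted limma p-values of 0.390 and 0.000649. CDH15, or M-cadherin, fell from 158 ± 94.4 to 65.0 ± 41.4 CPM (SD, n = 4), with adjusted limma p-values of 0.508 and 5.50e-05. The homeobox factor PITX3 and the adhesion molecule NCAM1 fell with the block by 1.08 and 0.57 on the log2 scale. Calls were lost without pair 1 for MEOX1 (0.0692), without pair 2 for PITX3 (0.164) and without pair 1, 2 or 4 for NCAM1 (up to 0.194), all adjusted limma p-values with the block. MYF5, a myogenic factor, and MEOX2 were at 0 in every library. The part of the lower DES and TFAP2B in the falls on this list was not tested. The 7 rhabdomyosarcoma markers tested, which include both, split 3 higher and 4 lower. For TBX1, CDH15, PITX3 and NCAM1 the replicate 3 libraries were low in both groups, between 9.41% and 28.8% of the others, beside the low rhabdomyosarcoma markers there.

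Of the 13 genes reported to be bound or regulated by PAX3 or PAX7, 9 were tested. Limma called 0 of them without the block and 3 with it (11.4% of all genes), 1 higher and 2 lower, and the list median was −0.37. SPRY1, an inhibitor of receptor tyrosine kinase signalling, fell from 74.0, 67.5, 31.4 and 56.1 CPM to 14.96, 14.5, 11.99 and 33.3 CPM. Its log2 change was −1.61 ± 0.36 (SE), and limma gave an adjusted p of 0.117 without the block, 8.81e-05 with it and 0.00796 without both replicate 3 libraries and without the block. It was the 1 gene of this list that DESeq2 called without the block (adjusted p 0.00674), where 1.93% of all genes were called. ID3, an inhibitor of basic helix-loop-helix factors, rose from 133 ± 73.6 to 266 ± 168 CPM (SD, n = 4), with all 4 pairs higher and adjusted limma p-values of 0.530 and 0.000886. FGFR4, a receptor tyrosine kinase, fell by 0.59 on the log2 scale with an adjusted limma p of 0.0229 with the block, and this call was lost without any 1 of the pairs (up to 0.162). LBX1, a factor of migrating progenitors, averaged 2.20 CPM in control and 1.03 CPM in siG9a and was not called.

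Of the 19 genes reported to be regulated by the EYA-SIX complex, 12 were tested. Limma called 0 without the block and 4 with it, all 4 lower (6.52% of all genes), and the list median was −0.34. TNNI2, the fast skeletal troponin I, fell from 9.60, 7.90, 2.46 and 5.71 CPM to 0.52, 2.42, 0 and 2.29 CPM. It was the only one of these 12 genes without overlap between the groups, as for 3.45% of all genes tested in that direction, and limma gave it an adjusted p of 0.213 in the unblocked and 0.00886 in the blocked fit. CCND1, or cyclin D1, fell from 173, 136, 212 and 106 CPM to 19.6, 65.4, 166 and 82.6 CPM, with adjusted limma p-values of 0.352 and 0.00449, and DESeq2 with the block gave 0.240. ALDOA, a glycolytic aldolase, fell by 0.58 and GDNF, a ligand of the RET receptor, by 1.31 on the log2 scale, with adjusted limma p-values of 0.00657 and 0.0477 with the block. Of these 4 genes DESeq2 with the block called only ALDOA (adjusted p 0.00210), and it gave no adjusted p for TNNI2 and GDNF. Calls with the block were lost without pair 1 for TNNI2 (0.0860) and CCND1 (0.0615) and without pair 1, 2 or 4 for GDNF (up to 0.226). MYH1 was at 0 in every library.

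**Figure D5:**
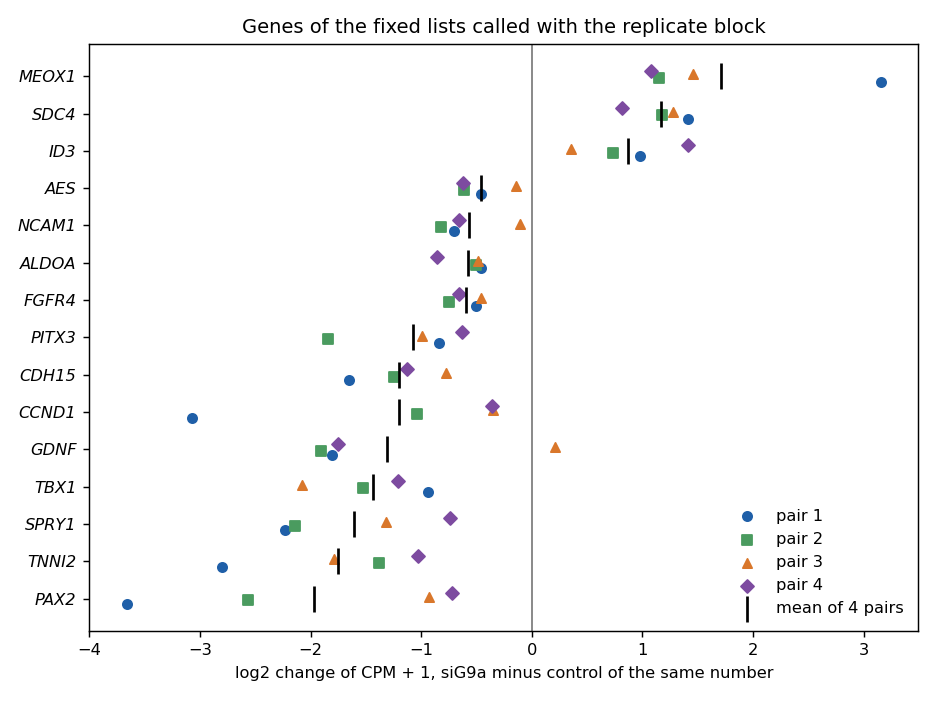
Log2 change of CPM + 1 in each pair of libraries with the same number, for the 15 genes of the 5 lists that limma called with the block, with the mean of the 4 pairs as a bar. MEOX1, SDC4 and ID3 lie right of 0 in every pair, the other genes lie left of 0, and GDNF has pair 3 on the right.

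Over the 5 lists together, limma called 15 different genes with the block, 3 higher and 12 lower, of 46 tested. Limma with the block called 11.4% of all genes (4.86% higher, 6.52% lower). The lists were chosen with earlier results of these data known, so these counts cannot be read as a result about the lists. None of the 15 genes was called by limma without the block (adjusted p from 0.117 to 0.726), and SPRY1 was called by DESeq2 without it. Of these 15 calls, 6 were kept whichever pair was left out, namely SDC4, TBX1, CDH15, SPRY1, ID3 and ALDOA. Without both replicate 3 libraries and without the block, where limma called 2.74% of all genes, 6 of the 15 were called, namely PAX2, MEOX1, TBX1, CDH15, SPRY1 and CCND1.

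Among members with a mean of at least 10 CPM, likeness of pattern over the 8 libraries was measured as the root mean square difference between log2(CPM + 1) profiles, each centred on its own mean, against 8891 other genes at that level. The nearest genes to EYA2 were SYTL2 (0.20) and SHISA4 (0.22), with log2 changes of −1.24 and −1.30. The nearest to EYA3 were CDKN2A (0.12) and E2F2 (0.13), with log2 changes of 0.58 and 0.73. LPIN2 and DSEL were nearest to PAX3, PRNP and BLCAP to EYA1, and TMEM47 and PVRL1 to EYA4. RABGGTB and UHRF1BP1L were nearest to SIX4, and EIF3F and DICER1 to SIX5. Between the members themselves PAX3 and EYA1 were the closest pair (0.28), followed by PAX3 and EYA4 (0.30), and EYA2 and EYA3 were the farthest apart (1.57). The libraries numbered 3 weigh on these distances, and no test was made of them.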

How the data were processed

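RNA of 8 Rh41 libraries was measured with QuantSeq 3′ kits and single-end sequencing, per the labels' protocols. The deposited table gives CPM that the authors made per gene and library. The submitters' processing notes list FastQC 0.11.8, Trim Galore, STAR 2.5.0a, HTSeq 0.8.0 and edgeR 3.28 and the builds GRCh38 and hg19, without roles. In each library 100% of non-zero values were whole multiples of 1 read (within 0.02 reads), so reads were recovered.

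The test was limma 3.58.1 (R 4.3.3) on log2(CPM + 1), lmFit and eBayes with trend, two-sided, for genes averaging 1 CPM or more, with Benjamini-Hochberg adjustment over all 15092 and a threshold of 0.05. The pseudocount of 1 understates the change of low genes. Replicate numbers come from the titles. Deviations of same-numbered libraries from their group means had correlations across genes of 0.50, 0.10, 0.67 and 0.13 for numbers 1 to 4. Each was above the limit of 0.1 set for pairing (number 2 at 0.104), and 6 of 8 libraries were closest to their own number. Replicate 3 stood apart in both groups and shifts both group means, so the low correlations of numbers 2 and 4 cannot show pairing. Values with the replicate number as a block are given where they change a call and for many genes whose call did not change. All of them depend on this pairing. Alternatives included edgeR 4.0.16 and DESeq2 1.42.0 on recovered reads. The fits were tested on simulated data with known changes. In these data the libraries of a number were drawn from a common mean, so pairing was built in. The simulation therefore cannot show whether the block suits the real libraries.

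The members, gene lists, markers and named genes were chosen with earlier results of these data known. From each list the 3 genes with the smallest p and all genes called with the block are named, and for each member at 10 CPM or more the 2 genes of most similar pattern. The lists were written from general knowledge. Markers and genes at 0 in every library were named after their values were seen. Some genes that the lists include are not reported here.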

Additional observations from a re-analysis of the deposited data

Results flagged for a closer look

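The 9 members, EHMT2, FOXO1, the named genes of the 5 lists and the tested marker genes, 49 genes in all, were examined for a library far from the other 3 of its group by Dixon's ratio. Of 98 groups tested, 9 had such a library, where chance gives about 1 in 20, or 4.90. Of these 9, 7 were control replicate 3. That library held 48.6 CPM of FOXO1 against 209 to 233 CPM in its group, and 10.45 CPM of TBX1 against 42.5 to 43.75 CPM. It held 95.3 CPM of MYOD1 against 817 to 864 CPM, 47.35 CPM of DES against 226 to 248 CPM and 3.07 CPM of CHRND against 20.8 to 23.99 CPM. It was high for CDH3, at 4.92 CPM against 0 to 0.69 CPM, and for KRT19, at 14.1 CPM against 0.69 to 2.43 CPM. For CDH1, control replicate 4 held 16.1 CPM against 4.25 to 5.48 CPM. For SPRY1, siG9a replicate 4 held 33.3 CPM against 11.99 to 14.96 CPM. No group of the 9 members passed this limit, though control replicate 3 held 12.9 CPM of EYA2 against 59.6 to 69.6 CPM in its group.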

How the results depend on the processing

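The 24 alternatives changed the pseudocount (0.1 or 5), the filter (none or a mean of 5 CPM), the scaling, the eBayes trend, the tool, the replicate block or the libraries used. Against 0 genes called without a block, 18 were called with no filter, 1717 with the replicate block, 1709 with edgeR and the block, 291 with DESeq2, 969 with DESeq2 and the block, and 413 without both replicate 3 libraries. Leaving out 1 library gave 0 to 300 genes, with 300 without control replicate 3 and 2 without siG9a replicate 4, and the block without 1 pair gave 668 to 1393. Members called were 2 with the replicate block, 2 with edgeR and the block, 1 with DESeq2 and the block, 1 without both replicate 3 libraries, 1 without control replicate 3, 0 without any other library, and 1 to 2 with the block without 1 pair. The log2 change of EHMT2 passed the threshold with the replicate block at −1.10, with edgeR and the block at −1.10, with DESeq2 and the block at −1.12 and with the block without 1 pair at −1.27 to −0.96. EYA2 passed with the replicate block at −1.36, edgeR and the block at −1.43, DESeq2 and the block at −1.45 and without both replicate 3 libraries at −1.54. It also passed without control replicate 3 at −1.92 and with the block without 1 pair at −1.56 to −1.16. EYA3 passed with the replicate block at 0.75, with edgeR and the block at 0.73 and with the block without pair 4 at 0.84. Over all fits that left out a library or a pair, log2 changes ran from −1.35 to −0.84 for EHMT2, −1.92 to −0.98 for EYA2 and 0.47 to 0.95 for EYA3. The other members changed sign in such fits, from −0.55 to 0.24 for PAX3, −0.76 to 0.49 for PAX7, −0.79 to 0.11 for SIX2, −0.34 to 0.53 for SIX4, −0.16 to 0.19 for SIX5, −0.48 to 0.30 for EYA1 and −0.44 to 0.41 for EYA4, none of them past the threshold. EYA4 also changed sign with edgeR (0.060), DESeq2 (0.050) and without both replicate 3 libraries (0.048), and SIX4 without both replicate 3 libraries (−0.025). The cause was not tested. Depth limits the members with few reads, PAX7 and SIX2 most.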
